A study of Mus musculus with 2 samples.

Results

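Cycling B cells were taken from the droplet single-cell RNA profiles of mouse omentum, the fat apron of the abdomen whose lymphoid clusters are called milky spots. A cell was a member when 200 to 7500 genes were detected, Cd79a and Ms4a1 were above 0, Cd3e was 0, Jchain was below 49.9 UMIs per 10000, and at least 2 of the 4 genes Mki67, Top2a, Ube2c and Birc5 were above 0. A UMI is a tag that marks 1 captured RNA molecule. In all, 192 of 14422 barcodes met the rule, 134 of 2696 gated B cells of the WT library and 58 of 1026 of the Postn-DTR library. The other 3530 gated B cells, 2562 WT and 968 Postn-DTR, are called non-cycling below. Because the members were selected on measured values, their difference from non-cycling B cells is given as a description, without a test.

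Both groups of mice were on a C57BL/6 background, both were given DT (diphtheria toxin), and omental cells were collected 5 days later. WT mice carried no receptor cassette. Postn-DTR mice were heterozygous for a DTR cassette placed in the first coding exon of Postn, the gene of the matrix protein periostin, so that cells using the Postn promoter became sensitive to the toxin. The Postn promoter is not restricted to the omentum, so toxin-sensitive cells could have been present in other tissues. Each group was 1 library made from pooled mice, so no spread between animals could be measured and no p-value is given. Every interval of a share below is an exact 95% Clopper-Pearson interval and that of summed UMIs an exact 95% interval too, both for counting error only, and fewer cells of a type and less RNA per cell cannot be told apart in a share of a library.

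B cells divide after antigen and helper signals, and their daughters follow different routes. In a germinal centre, dividing B cells mutate their antibody genes under the repressor Bcl6. Outside it, dividing B cells can become plasmablasts, which turn on Xbp1 and the secretory machinery and lose MHC class II. Milky spots are known for innate-like B1 B cells that supply natural IgM. A dividing cell copies its DNA in S phase, when replication enzymes and histones are made, and separates its chromosomes in mitosis, when kinetochore and spindle genes peak.

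The promoters of genes that peak in mitosis often hold 2 short elements, the CHR, bound by the MuvB complexes that repress these genes in resting cells, and the CCAAT box, bound by NF-Y. The windows of 2 of the genes that chose the members, Mki67 and Top2a, and of Cdca3, a mitotic entry gene that the rule did not use, are shown because the letters recur in them. Each window is 300 bases, from RefSeq on GRCm38.p6, on the gene's strand, with 250 bases before the start site. They lie at chr7:135716330-135716629 on the minus strand for Mki67, at chr11:99024140-99024439 on the minus strand for Top2a, and at chr6:124829926-124830225 on the plus strand for Cdca3. Capitals mark TTTGAA or TTCGAA for the CHR and CCAAT for the CCAAT box, on either strand.
Mki67: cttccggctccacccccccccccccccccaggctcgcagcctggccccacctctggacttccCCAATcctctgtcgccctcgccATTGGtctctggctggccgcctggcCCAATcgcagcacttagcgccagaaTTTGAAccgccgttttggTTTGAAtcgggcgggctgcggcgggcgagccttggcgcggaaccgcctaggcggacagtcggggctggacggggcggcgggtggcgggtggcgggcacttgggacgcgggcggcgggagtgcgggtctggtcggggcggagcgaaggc
Top2a: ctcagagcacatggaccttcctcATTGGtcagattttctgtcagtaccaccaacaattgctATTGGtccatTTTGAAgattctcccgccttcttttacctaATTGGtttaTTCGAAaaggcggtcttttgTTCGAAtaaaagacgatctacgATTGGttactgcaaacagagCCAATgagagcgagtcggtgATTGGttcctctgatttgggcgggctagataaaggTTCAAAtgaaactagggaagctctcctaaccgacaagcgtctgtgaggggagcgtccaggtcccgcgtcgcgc
Cdca3: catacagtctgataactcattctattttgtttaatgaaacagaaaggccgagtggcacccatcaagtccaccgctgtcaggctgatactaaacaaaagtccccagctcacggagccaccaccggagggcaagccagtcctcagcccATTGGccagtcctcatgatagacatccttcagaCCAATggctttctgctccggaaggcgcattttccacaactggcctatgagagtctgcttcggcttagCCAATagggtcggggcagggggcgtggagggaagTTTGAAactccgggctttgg
The CHR letters occurred 2 times in the Mki67 window, 4 times in the Top2a window and 1 time in the Cdca3 window. CCAAT letters occurred 3, 6 and 3 times in the same order. Of all 32851 promoters of this length, 19.2% held the CHR letters and 37.4% held CCAAT. The Ube2c window held 1 and 6, and the Birc5 window held neither. A match is a description of letters and not a binding site.

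Cycling cells made up 4.97% of gated B cells in WT (4.18 to 5.86) and 5.65% in Postn-DTR (4.32 to 7.25), and these intervals overlapped. Of all cells with 200 to 7500 genes cycling B cells made up 1.54% in WT, where there were 8680, and 1.01% in Postn-DTR, where there were 5734. Most members expressed more of the 4 genes than the rule asked for. In WT, 16 members had 2 of the 4, 25 had 3 and 93 had all 4, and in Postn-DTR the counts were 6, 11 and 41. Just outside the rule lay 181 WT and 69 Postn-DTR gated B cells with 1 of the 4 genes.

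Mki67, which codes for the coat protein of mitotic chromosomes, was detected in 98.5% of members in WT and 100% in Postn-DTR. Top2a, the topoisomerase that untangles sister chromatids, was detected in 92.5% and 91.4%, Ube2c, which directs mitotic proteins to destruction, in 79.1% and 77.6%, and Birc5 (survivin), a member of the chromosomal passenger complex, in 87.3% and 91.4%. In T cells gated on Cd3e with no B cell gene, the shares for these 4 genes lay between 3.72% and 7.38% in WT and between 6.49% and 11.1% in Postn-DTR. The median depth was 20642 UMIs in WT and 28082 in Postn-DTR members, 4788 and 4438 in those T cells, and 5648 and 5528 in non-cycling B cells. Cycling B cells were thus deeper than their non-cycling neighbours in both libraries, and the rule asks for detection, which grows with depth. After every cell was thinned to 2000 UMIs, 3.57% of WT and 3.88% of Postn-DTR gated B cells still met it, out of 2658 and 1004 cells deep enough to be thinned. The same 2-of-4 count was met by 3.92% and 7.74% of T-gated cells, by 0 of 21 mature neutrophils in WT (a count of 0 allows up to 14.3%) and by 0.435% of 230 in Postn-DTR. It was met by 40.2% and 24.2% of all neutrophil-gated cells, a gate that takes in granulocyte precursors.

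The Jchain limit bore on the libraries unequally. Jchain, the joining chain of secreted IgM and IgA, took 376 WT and 881 Postn-DTR cells with Cd79a and Ms4a1 out of the gate, 43 and 152 of them cycle-positive. Without the limit, cycling cells were 5.76% of WT and 11% of Postn-DTR B cells. Between 25 UMIs per 10000 and the limit lay 7 WT and 23 Postn-DTR members, and between the limit and 100 lay 11 and 39 cycle-positive cells left out. So the Postn-DTR members were cut from a range that was filled on both sides of the limit. Cd79b, the signalling partner of Cd79a, which the rule did not use, was detected in 134 of the 134 WT members and 57 of the 58 Postn-DTR members, against 9.6% and 7.11% of T-gated cells. A further B cell marker was thus detected in nearly every member, although 5 WT and 17 Postn-DTR members had only 1 Ms4a1 UMI. The T-gated cells were shallower and had been asked for no Cd79a or Ms4a1, so their share is a low background. Detection says nothing of the level of Cd79b, which is set against non-cycling B cells below.

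The libraries held 80640890 UMIs in WT and 81120961 in Postn-DTR, with medians of 5618 and 8456 per cell. They shared 65 barcodes, none of them a member, and no member had over 25% mitochondrial UMIs. RNA of other lineages was present in members. Neutrophil markers had 11294 UMIs over 26 of 134 WT members, 10739 of them in 1 cell, and 13283 over 22 of 58 Postn-DTR members, 9003 of them in 1 cell. Macrophage markers had 4071 UMIs over 72 WT and 1927 over 42 Postn-DTR members. T cell markers had 178 UMIs over 63 WT members and 10 over 7 Postn-DTR members, where 6 of the 9 genes were at 0. Stromal markers had 1633 UMIs over 74 WT members and 193 over 20 Postn-DTR members. The NK and innate lymphoid list had 227 and 74 UMIs, the dendritic list 158 and 2, and the red cell and mast cell list 7 and 1. Scrublet called no WT member and 2 Postn-DTR members doublets. The part of such RNA in each result below was not tested beyond the values given.

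Cell cycle genes that the rule did not use were higher in cycling B cells on nearly every list. A level here is the mean over cells of UMIs per 10000, a ratio is the log2 of 2 levels after adding 0.05 to each, and a gene was tested when the mean of the 2 levels reached 0.25 and at least 50 UMIs were counted. Tested here means compared in this way, with no p-value. In WT, 458 of 4957 tested genes were at least 2-fold higher in cycling B cells (9.24%) and 140 at least 2-fold lower (2.82%). In Postn-DTR, 589 of 4777 were higher (12.3%) and 546 lower (11.4%). Counts for the cell cycle lists describe the selection and are read against nothing. In the plot of gene lists, the cell cycle lists lie right of the 2-fold line in both libraries and the MHC class II and follicular lists lie on the left.

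**Figure D1:**
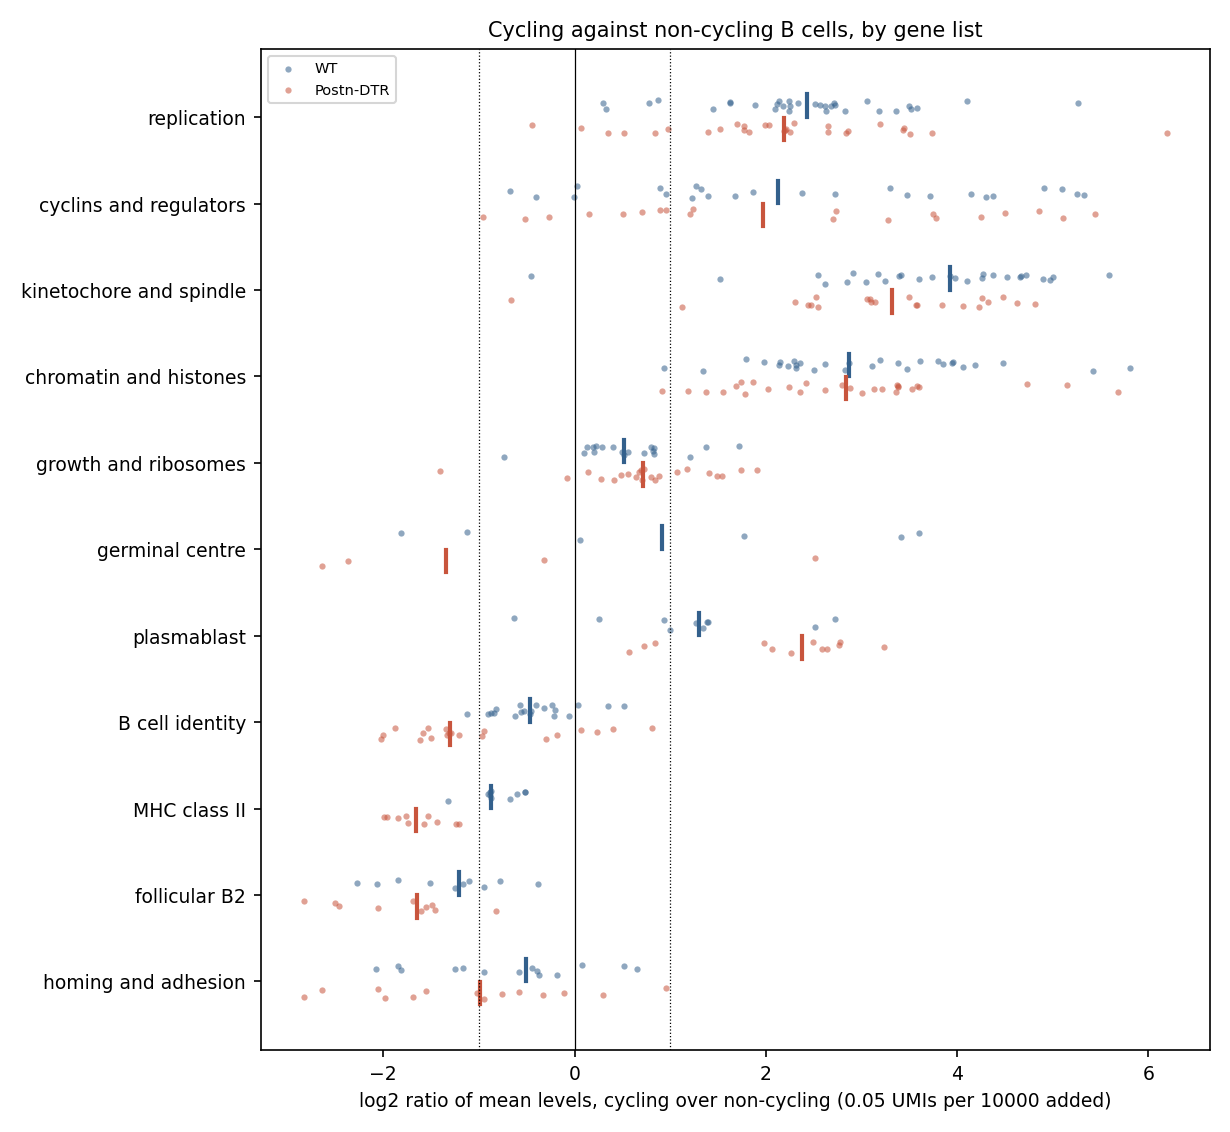
Log2 ratio of the mean level in cycling over non-cycling B cells (x axis) for the tested genes of 11 lists (y axis), WT in blue and Postn-DTR in red. Points are genes, thick bars are list medians and dotted lines mark 2-fold; in the MHC class II list 1 of 10 genes in WT and 10 of 10 in Postn-DTR lie beyond 2-fold on the lower side.

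The replication list holds the licensing factors, fork enzymes and nucleotide-making enzymes of S phase. Of its 37 genes 32 were tested in WT, 28 were at least 2-fold higher and none lower, with a median log2 ratio of 2.43 against 0.075 over all tested genes. In Postn-DTR 23 of 29 were higher, with a median of 2.19 against -0.01. Rrm2, the subunit of ribonucleotide reductase that is made in S phase, had a level of 2.46 in WT cycling and 0.0156 in WT non-cycling B cells, and of 4.58 and 0.0135 in Postn-DTR. Its log2 ratios were 5.26 and 6.19. Pcna, the sliding clamp of the fork, had 2.79 against 0.576 in WT and 1.80 against 0.494 in Postn-DTR. Dut, which keeps uracil out of DNA, had 3.67 against 0.397 and 2.56 against 0.366. Tyms, which makes thymidylate, had ratios of 4.10 and 3.74, and Mcm6, a helicase subunit, 2.71 and 2.29. Pclaf, the clamp-associated factor, led all genes outside the rule, with 7.96 against 0.0156 in WT, a log2 ratio of 6.93. In Postn-DTR it had 5.09 in cycling B cells, and only 3 UMIs lay in all 968 non-cycling ones.

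The mitotic lists were shifted as far. Of the kinetochore, spindle and cytokinesis genes 26 of 27 tested in WT were at least 2-fold higher and 21 of 22 in Postn-DTR, where the median was 3.32. The exception in both was Pttg1 (securin, the guard of separase), at -0.46 in WT and -0.66 in Postn-DTR. Cenpf, a kinetochore protein, had 2.50 against 0.00313 in WT, from 771 and 6 UMIs, and 1.19 in Postn-DTR cycling cells, where the non-cycling cells had 0 UMIs. Tpx2, which builds the spindle, had ratios of 5.00 and 4.32, and Cdca8, a passenger complex subunit, 4.66 and 4.26. Cenpa, the histone that marks the centromere, had 2.62 and 2.47, and the checkpoint protein Bub3 1.52 and 1.12. Cdca3, whose window is printed above, had 2.17 against 0.0074 in WT and 2.24 against 0.00882 in Postn-DTR.

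Among cyclins, kinases, inhibitors and cell cycle transcription factors 18 of 24 tested genes were at least 2-fold higher in WT and 12 of 20 in Postn-DTR, with none lower. Ccna2 (cyclin A2) had ratios of 5.33 and 5.44 and its partner kinase Cdk1 5.25 and 4.86. Cks1b and Cks2, small subunits of the kinases, had 4.91 and 3.72 in WT and 4.25 and 2.70 in Postn-DTR. Cdk4, a kinase of early G1, had only 1.23 and 1.24. The D cyclins that serve it did not follow the mitotic genes. Ccnd2 had levels of 1.95 and 1.91 in WT cycling and non-cycling B cells, and Ccnd3 had 1.74 and 0.87 in WT but 1.03 and 1.51 in Postn-DTR. The D cyclins were named after their values were seen.

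Genes of chromatin packing, histones and tubulin were higher in 28 of 29 tested cases in WT and 27 of 28 in Postn-DTR, with medians of 2.87 and 2.84. Stmn1, which loosens microtubules, had 9.68 against 0.124 in WT and 5.32 against 0.0543 in Postn-DTR. Its ratios were 5.81 and 5.68, and the ratios of summed UMIs had intervals of 5.58 to 5.95 and 5.70 to 6.62. The linker histone Hist1h1b had 5.42 and 5.15, the histone variant H2az1 3.11 and 2.62, the chromatin protein Hmgb2 3.85 and 3.60 and its relative Hmgb1 2.15 and 1.74, and the tubulin Tubb5 2.29 and 2.42. Growth and ribosome assembly genes differed less. In WT 3 of 19 and in Postn-DTR 7 of 22 were at least 2-fold higher, with medians of 0.52 and 0.72. Ran, the GTPase of nuclear transport, had 1.72 and 1.54 and its binding protein Ranbp1 1.37 and 1.49, while the nucleolar proteins Npm1 and Ncl had 0.52 and 0.56 in WT and the translation factor Eif5a 0.83. Myc, the growth regulator of early activation, was on the other side, at 1.93 against 3.26 in WT and 0.752 against 2.08 in Postn-DTR. Of the DNA damage list 8 were tested in WT and 4 were higher, and 1 of 2 in Postn-DTR. Of the apoptosis regulators 1 of 10 was higher and 1 lower in WT, and 2 and 1 of 11 in Postn-DTR.

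Members held RNA of both S phase and mitosis, in varying balance. For each cell the summed level of 43 S phase genes was set against that of 50 G2 and M phase genes, neither list holding a rule gene. The S phase sum had a median of 41.1 in WT cycling and 6.41 in WT non-cycling B cells, and of 31.6 and 5.91 in Postn-DTR. The G2 and M sum had medians of 82.4 and 11.7 in WT and 66.2 and 10.6 in Postn-DTR. S phase RNA was 31.7% of the total in the median WT member (quartiles 14.8 to 52.6) and 30.6% in the median Postn-DTR member (20.4 to 50.4). It was the larger sum in 39 of 134 WT members (29.1%) and in 16 of 58 Postn-DTR members (27.6%). The overall shares were thus close between the libraries, with overlapping quartile ranges. In non-cycling B cells the median share was 35.7% in WT and 37.5% in Postn-DTR, and S phase RNA was the larger in 18.9% and 20.5%. The median share was thus no higher in members than in non-cycling B cells, and members stood apart by the size of both sums. By the ranges defined below, S phase RNA was the larger sum in 2 of 15 WT and 11 of 32 Postn-DTR members with high Xbp1 and Mzb1 (13.3% and 34.4%). It was the larger in 35 of 111 and 2 of 15 members without granule RNA or high Xbp1 and Mzb1 (31.5% and 13.3%). The order of the libraries differed between these ranges, but each lower share rested on 2 cells. Only 6 WT and 2 Postn-DTR non-cycling B cells lay above the members' median S phase sum, and none above the G2 and M median.

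**Figure D2:**
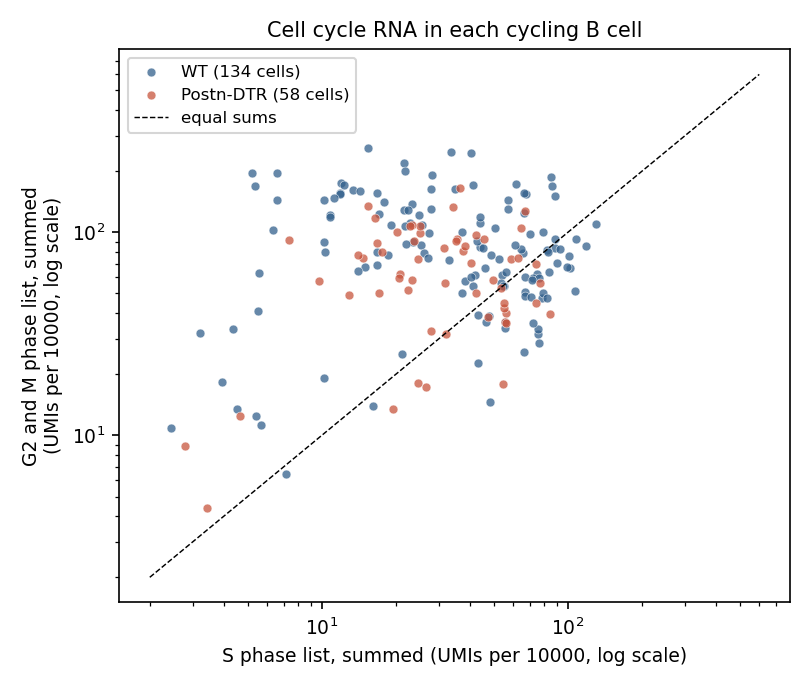
Summed level of the S phase list (x axis) and of the G2 and M phase list (y axis) in each cycling B cell, in UMIs per 10000 on log scales, WT in blue and Postn-DTR in red. Points below the dashed line of equal sums, 39 WT and 16 Postn-DTR members, held more S phase RNA.

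Genes of resting follicular B cells were lower in cycling B cells of both libraries. Of the 10 follicular B2 genes, 7 were at least 2-fold lower in WT and 9 in Postn-DTR, with medians of -1.21 and -1.65. Ighd, the IgD heavy chain of mature naive cells, had 0.735 against 3.76 in WT and 0.501 against 3.07 in Postn-DTR, log2 ratios of -2.28 and -2.50. Fcer2a (CD23) had 0.704 against 3.12 and 0.143 against 1.01. Ccr7, the receptor that leads lymphocytes to T zones, had 1.55 against 5.73 and 1.75 against 5.24. Klf2, a transcription factor of quiescence and egress, had 2.64 against 5.71 in WT and 3.74 against 6.63 in Postn-DTR. Foxp1 had ratios of -0.78 and -1.46 and Bach2, a repressor of plasma cell genes, -0.38 and -1.61. Others among the 10 lowest ratios were Btg1, an anti-proliferative gene, at 3.36 against 12.2 in WT and 2.20 against 11.1 in Postn-DTR, and Satb1, Rasgef1b, Tcp11l2, Egr3 and Ccr6, with ratios from -1.85 to -2.08 in WT and from -1.91 to -2.66 in Postn-DTR. The neutrophil gene Retnlg was on the same list, with no UMI in WT members and 61 UMIs in Postn-DTR members, 41 of them in 1 cell.

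Homing and adhesion genes were at least 2-fold lower in 5 of 14 tested cases in WT and 7 of 14 in Postn-DTR, with none higher. Ccr6, a receptor for mucosal chemokine, had ratios of -2.08 and -1.98, while the integrin chain Itga4 had -0.58 and -0.11, Itgb7 -0.44 and -0.76, and Itgb1 0.52 and -0.58. Activation genes were lower in 5 of 16 and 8 of 15. Cd83, an activation marker, had 3.08 against 7.09 in WT and 1.67 against 6.45 in Postn-DTR, and the receptor-induced gene Nr4a1 had 1.66 against 3.36 and 0.924 against 3.68. Nfkbia, the inhibitor of NF-kB, had -0.42 and -0.45. Of the glucocorticoid-induced genes 1 of 3 tested was lower in WT and 3 of 4 in Postn-DTR. Tsc22d3 had 1.04 against 2.94 in WT and 1.43 against 5.44 in Postn-DTR. Fkbp5 had 0.211 against 0.106 in WT and 0.393 against 1.01 in Postn-DTR, Per1 had ratios of -0.63 and -1.69, and Ddit4 -0.71 and -0.40.

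Antigen presentation and B cell identity genes were lower in cycling B cells by different amounts in the libraries. All 10 MHC class II genes were below the non-cycling level in both, 1 of 10 beyond 2-fold in WT and 10 of 10 in Postn-DTR, with medians of -0.87 and -1.66. Cd74, the invariant chain, had 134 against 244 in WT and 70.3 against 204 in Postn-DTR. H2-Aa had 34.1 against 63.1 and 15.7 against 56.8, and H2-Eb1 and H2-Ab1 had ratios of -0.68 and -0.52 in WT and -1.74 and -1.24 in Postn-DTR. H2-Oa and H2-Ob, which modulate peptide loading, had -1.32 and -0.91 in WT and -1.99 and -1.96 in Postn-DTR. Among 20 B cell identity and receptor signalling genes 1 was at least 2-fold lower in WT and 12 in Postn-DTR. Ebf1, a factor that specifies the lineage, had 2.23 against 4.94 in WT and 0.799 against 3.35 in Postn-DTR. Cd22, an inhibitory co-receptor, had ratios of -0.91 and -2.02, Cd79b -0.47 and -1.33, and the tetraspanins Cd37 and Cd81 -0.84 and 0.52 in WT and -1.50 and 0.23 in Postn-DTR. The B cell precursor genes Rag1 and Igll1 had no UMI in members of either library, and 1 precursor gene was tested, Vpreb3, at -1.39 and -1.79.

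Members of the libraries differed in kind. Ranges were set on 3 sums of RNA after the values had been seen, so they are ranges and not cell types. They were at least 20 UMIs over 8 neutrophil granule genes (Elane, Mpo, Prtn3, Ctsg, S100a8, S100a9, Ngp and Camp), otherwise at least 30 UMIs per 10000 of Xbp1 plus Mzb1, otherwise at least 10 UMIs over 6 germinal centre genes (Mybl1, S1pr2, Gcsam, Rgs13, Nuggc and Fas). WT members fell into 8 with granule RNA, 15 with high Xbp1 and Mzb1, 19 with germinal centre RNA and 92 with none of these. Postn-DTR members fell into 11, 32, 0 and 15. Of the 32, 2 held at least 10 germinal centre UMIs and were placed by the Xbp1 and Mzb1 limit, which came first, so the 0 depends on that order. High Xbp1 and Mzb1 thus marked 11.2% of WT members (6.4 to 17.8) and 55.2% of Postn-DTR members (41.5 to 68.3), and these intervals did not overlap. Few members lay near the granule limit, but more lay near the other two. Between 20 and 40 of Xbp1 plus Mzb1 there were 8 WT and 5 Postn-DTR members, with 10 to 40 granule UMIs 1 and 1, and with 5 to 14 germinal centre UMIs 16 and 2. The numbers of WT members with high Xbp1 and Mzb1 and with germinal centre RNA thus depend on where these limits are set.

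**Figure D3:**
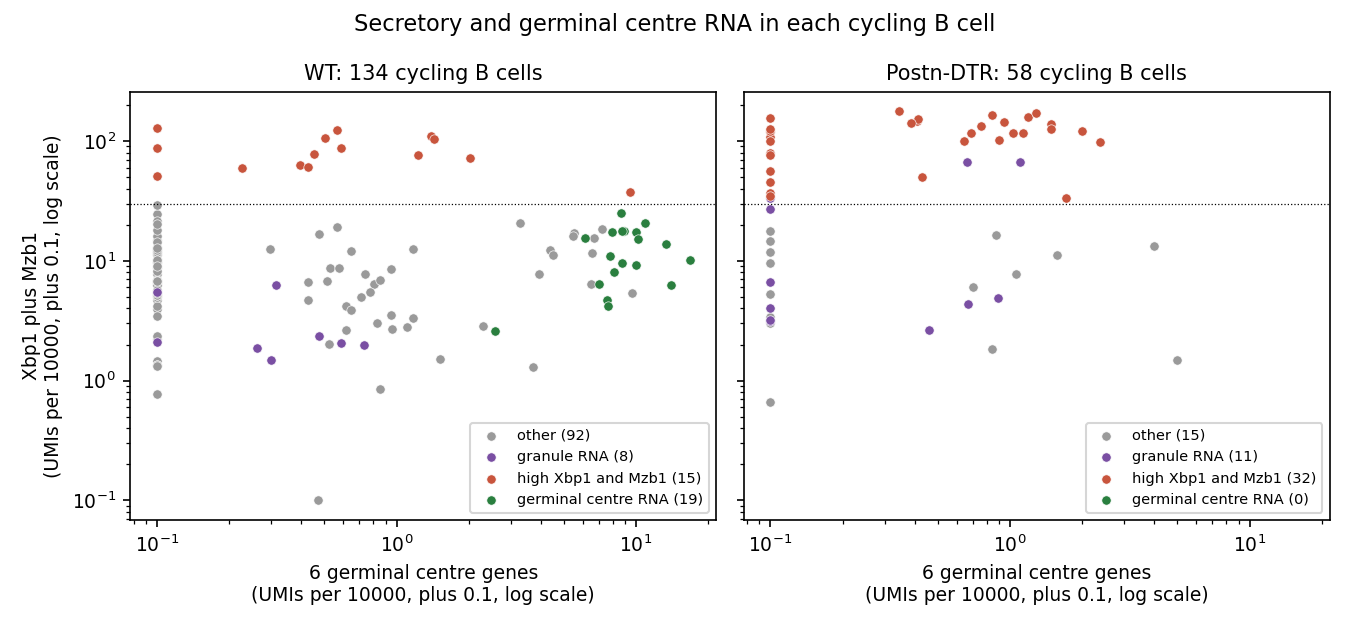
Summed level of 6 germinal centre genes (x axis) and of Xbp1 plus Mzb1 (y axis) in each cycling B cell, in UMIs per 10000 with 0.1 added, on log scales, WT on the left and Postn-DTR on the right. Colours are the 4 ranges, assigned in the order of the text, and the dotted line is 30 UMIs per 10000. The high Xbp1 and Mzb1 colour is carried by 32 of 58 Postn-DTR and 15 of 134 WT members. The 19 members with the germinal centre colour are all WT. In Postn-DTR 2 members with at least 10 germinal centre UMIs carry the high Xbp1 and Mzb1 colour.

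Xbp1 drives the secretory programme of plasmablasts and Mzb1 is a chaperone of antibody assembly in the endoplasmic reticulum. Their summed level in the median member of the high range was 77.9 in WT (range 37.3 to 129) and 118 in Postn-DTR (range 33.5 to 176), against 6.76 and 7.65 in members with none of the 3 kinds of RNA. Members in this range were present in both libraries with overlapping values, and the Postn-DTR median was higher. Over H2-Aa, H2-Ab1 and Cd74 the median sum was 59.1 in WT and 39.9 in Postn-DTR members with high Xbp1 and Mzb1, 44.9 and 42.5 in those with granule RNA, 170 in WT members with germinal centre RNA, and 198 and 221 in the others. MHC class II RNA was therefore low in the same members that held Xbp1 and Mzb1 or granule RNA. The same ranges were rare in non-cycling B cells, with at least 30 UMIs per 10000 of Xbp1 plus Mzb1 in 0.546% of WT and 7.44% of Postn-DTR cells.

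In WT a group of members held germinal centre RNA. At least 10 UMIs over the 6 genes were counted in 19 of 134 WT members, 14.2% (8.76 to 21.3), in 3 of 2562 WT non-cycling B cells (0.117%), in 2 of 58 Postn-DTR members (3.45%, 0.42 to 11.9) and in 0 of 968 Postn-DTR non-cycling B cells (a count of 0 allows up to 0.31%). The intervals of the members overlapped between the libraries. S1pr2, which confines cells to the germinal centre, was detected in 20.9% of members in WT and 5.17% in Postn-DTR, against 2.36% and 1.05% of T-gated cells. Mybl1 was detected in 28.4% and 6.9%, against 0.498% and 0.418%, and Gcsam in 11.9% of WT members against 0.199% of T-gated cells, and in 0 of 58 Postn-DTR members (up to 5.17%). Thinned to 2000 UMIs, 21.6% of WT and 12.1% of Postn-DTR members kept a UMI of any of the 6 genes, against 1.82% and 0.951% of non-cycling B cells. At 1000 UMIs the members' shares were 13.4% and 1.72%.

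Over all members, 3 of 6 tested germinal centre genes were at least 2-fold higher than in non-cycling B cells in WT and 2 lower. In Postn-DTR 1 of 4 was higher and 2 lower. Mef2b, a transcription factor of germinal centre B cells, had 1.27 against 0.059 in WT and 0.676 against 0.0775 in Postn-DTR. Neil1, a DNA glycosylase, had 1.07 against 0.279 in WT and 0.26 against 0.337 in Postn-DTR. The lower genes were Cd38 and Gpr183, of which mouse germinal centre B cells are known to express little, with Cd38 at 0.892 against 2.01 in WT and 0.475 against 2.66 in Postn-DTR, and Gpr183 at ratios of -1.82 and -2.64. In the 19 WT members with germinal centre RNA, genes that did not define the range had levels of 4.92 for Mef2b, 4.37 for Neil1, 1.58 for Bcl6 and 3.26 for Bach2, and of 0.403 for Cd38, 0.393 for Ccr7 and 0.147 for Gpr183. Their median S phase and G2 and M sums were 67.8 and 129, above the 41.1 and 82.4 of all WT members.

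Compared between the libraries, cycling B cells of Postn-DTR had more secretory RNA and less MHC class II and germinal centre RNA than those of WT. Of 4832 tested genes 170 were at least 2-fold higher in Postn-DTR (3.52%) and 253 lower (5.24%), with a median of -0.19. In non-cycling B cells the same comparison gave 60 of 4684 higher (1.28%) and 17 lower (0.363%). Leaving out members with granule RNA or high Xbp1 and Mzb1, a choice made after the values were seen that left 111 WT and 15 Postn-DTR cells, it gave 65 of 4951 higher (1.31%) and 229 lower (4.63%). In the plot of lists by library, the plasmablast list lies to the right in all members and near 0 in the remaining ones.

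**Figure D4:**
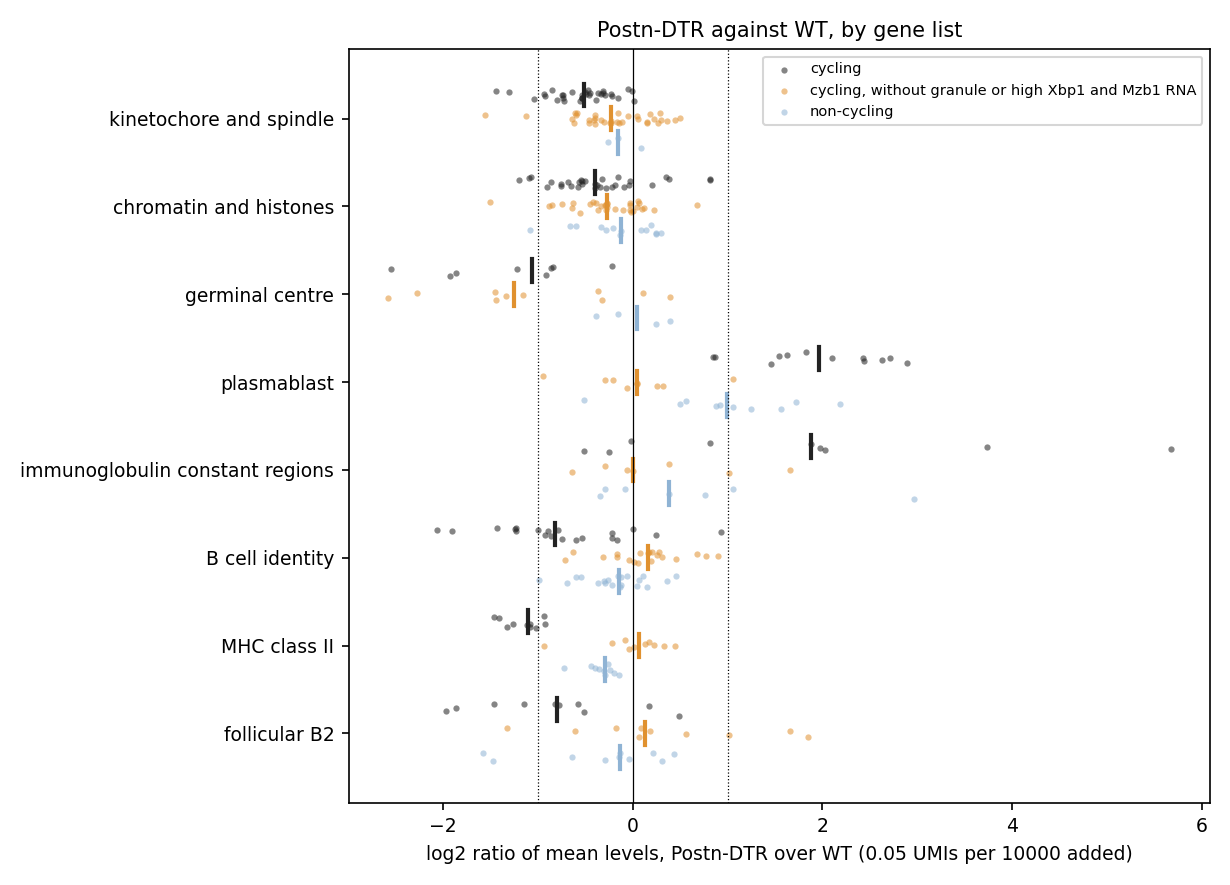
Log2 ratio of the mean level in Postn-DTR over WT (x axis) for the tested genes of 8 lists (y axis), in cycling B cells (black), in cycling B cells without granule or high Xbp1 and Mzb1 RNA (orange) and in non-cycling B cells (light blue). Points are genes, thick bars list medians and dotted lines 2-fold; the plasmablast medians are 1.97, 0.045 and 0.99 in that order.

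Of 12 tested plasmablast genes 10 were at least 2-fold higher in Postn-DTR members and none lower, with a median of 1.97. In non-cycling B cells 5 of 10 were higher, with a median of 0.99, and without the granule and high Xbp1 and Mzb1 ranges 1 of 9, with 0.045. Xbp1 had 2.49 in WT and 15.7 in Postn-DTR members, and 0.924 and 2.27 in non-cycling B cells. Its log2 ratio between the libraries was 2.63, and that of summed UMIs, which weights deep cells more, was 2.25 (2.15 to 2.35). Mzb1 had 14.4 and 51.7, a ratio of 1.83, Creld2, a chaperone of the endoplasmic reticulum, 3.05 and 16.8, Derl3, a factor of protein disposal there, 1.01 and 4.47, and Sec11c, a signal peptidase subunit, 4.35 and 12.7. Fkbp11, a prolyl isomerase of secretory cells, had 0.478 and 3.85 and a UMI in 33 of 134 and 38 of 58 members. Sdc1 (CD138), the plasma cell surface marker, was detected in 9.7% of members in WT and 50% in Postn-DTR, against 6.78% and 2.51% of T-gated cells. Within members of high Xbp1 and Mzb1 the levels were 13.5 in WT and 26.2 in Postn-DTR for Xbp1, 69.1 and 85 for Mzb1, 3.34 and 6.66 for Fkbp11 and 21.7 and 28.6 for Creld2, so that Postn-DTR was higher there too. In members without granule RNA or high Xbp1 and Mzb1, the Mzb1 level was 8.02 in WT and 7.66 in Postn-DTR, a ratio of -0.066, and the Xbp1 ratio was -0.95. The range left out was defined on Xbp1 plus Mzb1 and held 32 of 58 Postn-DTR and 15 of 134 WT members. The fall of these 2 ratios thus followed in part from that choice, and the 2 Mzb1 levels were close.

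Of the immunoglobulin constant regions 5 of 9 were at least 2-fold higher in Postn-DTR members and none lower, against 2 of 7 in non-cycling B cells. Ighm had 28.3 in WT and 111 in Postn-DTR members, Igkc, the kappa light chain, 30.6 and 125, and Ighg3 10.6 and 39.1. In the members without granule RNA or high Xbp1 and Mzb1 the Ighm ratio was -0.056. In MHC class II, 8 of 10 genes were at least 2-fold lower in Postn-DTR members, with a median of -1.10, against 0 of 10 in non-cycling B cells, with -0.29, and 0 of 10 in the remaining members, with 0.072. H2-Aa had 34.1 in WT and 15.7 in Postn-DTR members, a ratio of -1.12, and 0.13 in the remaining members. Of 20 B cell identity genes 6 were lower, 0 in non-cycling B cells and 0 in the remaining members, with medians of -0.83, -0.15 and 0.16. Follicular B2 genes were lower in 4 of 10, with a median of -0.80, but in the remaining members 3 were higher and 1 lower, with 0.13. There Ccr7 had 1.82 in WT and 5.87 in Postn-DTR and Klf2 2.96 and 10.8.

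Germinal centre genes were at least 2-fold lower in Postn-DTR members in 4 of 8 tested cases, with a median of -1.06, against 0 of 4 in non-cycling B cells. In the remaining members the count was 6 of 10, with a median of -1.25. Bcl6 had 0.469 in WT and 0.0388 in Postn-DTR members, from 134 and 6 UMIs in 48 of 134 and 5 of 58 cells, a log2 ratio of -2.55 whose summed UMIs gave -3.52 (-4.99 to -2.36). In non-cycling B cells Bcl6 had 0.449 and 0.395. Neil1 had a ratio of -1.86 and Mef2b -0.86. Fcmr, the receptor for IgM, had 4.32 and 0.651, a ratio of -2.64 and UMIs in 117 of 134 and 17 of 58 members. Fcmr had 7.14 and 4.86 in non-cycling B cells, and its ratio was -1.13 in the remaining members. Lmo7, a LIM domain gene, had 0.587 and 0.0538, from UMIs in 45 and 6 cells. Mt1, a metallothionein, was among the highest, with 0.356 and 3.50, a ratio of 3.13 and UMIs in 28 of 134 and 40 of 58 members. Mt1 was 0.152 and 0.643 in non-cycling B cells, 0.596 and 5.67 in members with high Xbp1 and Mzb1, and 0.118 and 0.179 in the remaining members.

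Cell cycle genes were mostly below the WT level in Postn-DTR members, few of them by 2-fold. The S phase, G2 and M phase, replication and chromatin lists had 2 of 37, 3 of 44, 3 of 33 and 3 of 32 genes at least 2-fold lower in Postn-DTR members, and none higher, with medians of -0.35, -0.48, -0.32 and -0.40 against -0.19 over all tested genes. Only 4 of the 37 S phase genes and 1 of the 44 G2 and M phase genes lay above 0. The kinetochore list had 3 of 34 lower, with 1 of 34 above 0 and a median of -0.52, and cyclins and kinases, DNA damage genes and apoptosis regulators had 0 of 30, 0 of 11 and 0 of 11 on either side. In the remaining members the G2 and M phase and kinetochore medians were -0.14 and -0.23, with 16 of 47 and 12 of 35 genes above 0. The S phase, replication and chromatin medians there were -0.39, -0.42 and -0.27, against -0.073 over all tested genes. Rrm2 was higher in Postn-DTR, at 4.58 against 2.46, a ratio of 0.88, but -0.21 in the remaining members. In the growth list 2 of 22 were higher and 1 lower, namely Srm, a polyamine enzyme, at 3.07 against 1.35, Slc7a5, an amino acid carrier, at 1.13 against 0.291, and Myc, at 0.752 against 1.93. In the remaining members 0 of 22 growth genes were higher and 5 were lower, with a median of -0.34. Over all members, 4 of 13 activation genes were lower, 3 of 13 homing genes and 2 of 9 B1 genes. None of the 4 tested glucocorticoid-induced genes passed 2-fold, with a median of 0.56, against 1 of 4 higher in non-cycling B cells, where Fkbp5 had a ratio of 2.76. In the remaining members 3 of 4 were higher, Tsc22d3 by 1.39, Fkbp5 by 1.55 and Ddit4 by 1.34, and Per1 was lower.

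Several of the largest ratios rested on few cells. Elane, Prtn3 and Mpo, enzymes of primary neutrophil granules, were among the 10 highest genes of cycling over non-cycling B cells, yet only 11 of 134 WT members held a UMI of each, and in Postn-DTR 12, 12 and 10 of 58. The 8 WT members with granule RNA held 51 to 11076 granule UMIs (median 710) and the 11 Postn-DTR ones 44 to 9029 (median 1003), against at most 10 and 5 in members without granule RNA or high Xbp1 and Mzb1. The same cells held B cell RNA, with 9 to 35 Cd79a and 2 to 11 Ms4a1 UMIs in WT and 1 to 68 and 1 to 22 in Postn-DTR, and were deep, with medians of 42194 and 35201 UMIs. The neutrophil genes Camp, Ltf, Cd177 and Retnlg, among the highest of Postn-DTR over WT, had UMIs in 7, 8, 8 and 3 of 58 members. For Camp 1713 of 2484 UMIs were in 1 cell. Ighg1 and Ighg2c were on the same list through 1 cell each, with 539 of 593 and 449 of 461 UMIs. The stromal genes Igfbp5, Enpp2, Col3a1, Igfbp6 and Sparc, the lowest of Postn-DTR over WT, had UMIs in 9, 9, 12, 20 and 8 of 134 WT members, and 7 WT members held 43 to 699 stromal UMIs. Without members holding 20 or more stromal UMIs, at least 10 germinal centre UMIs were counted in 18 of 127 WT members (14.2%) and in 2 of 57 of Postn-DTR (3.51%). Both of the 2 Postn-DTR members that Scrublet called doublets had granule RNA. Whether such cells were doublets was not tested beyond the Scrublet calls.

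B1 and follicular B2 genes were set against each other within each cell by summed UMIs. B1 RNA was the larger in 46.3% of WT members (37.6 to 55.1) and 62.1% of Postn-DTR members (48.4 to 74.5), against 10.5% and 15.2% of non-cycling B cells. After thinning to 2000 UMIs the members' shares were 37.3% and 25.9%, with overlapping intervals, which turned the order of the libraries. Anxa2, Ahnak and Cd9 are also expressed by many cells that are not B1 cells, and without these 3 genes the shares were 11.2% and 37.9%, against 3.08% and 9.19%. By kind, the share over the whole list was 66.7% and 81.2% in members with high Xbp1 and Mzb1, 31.6% in WT members with germinal centre RNA, and 42.3% and 13.3% in all members without granule RNA or high Xbp1 and Mzb1. Without Anxa2, Ahnak and Cd9 the shares by kind were 33.3% and 53.1%, 5.26%, and 9.01% and 6.67%, in the same order. Of the B1 genes 3 of 9 were at least 2-fold higher in WT cycling B cells, and in Postn-DTR 2 of 10 were higher and 4 lower. Anxa2, an annexin, had 3.51 against 0.82 in WT and 1.64 against 0.579 in Postn-DTR, Spn (CD43) had 0.476 against 0.173 and 0.501 against 0.209, and Ahnak had ratios of -0.10 and -1.41. Cd9 had 1.07 and 0.57 and Plscr1 0.29 and -1.22. The B1 list thus held no common direction in Postn-DTR.

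Most cycling B cells expressed IgM. By the constant region with the most UMIs, Ighm led in 127 of 134 WT members (94.8%) and 47 of 58 Postn-DTR members (81%). A switched isotype led in 7 WT members, 5.22% (2.13 to 10.5), 6 with Ighg3 and 1 with Ighg2c, and in 11 Postn-DTR members, 19% (9.87 to 31.4), 8 with Ighg3, 2 with Ighg1 and 1 with Ighg2c. No member of either library was led by Igha. The shares in non-cycling B cells were 1.8% and 3.1% and in T-gated cells, where such UMIs are free RNA, 3.46% and 3.97%. A stricter rule of at least 3 UMIs that are at least 50% of all gave shares of only the cells that met it. They were 5.3% of 132 WT (2.16 to 10.6) and 19% of 58 Postn-DTR members, against 1.63% of 673 and 2.84% of 176 T-gated cells. The T cell share thus lay below both members' intervals, whereas the first rule, over all T-gated cells, put it inside the WT one. The members' own intervals overlapped between the libraries under both rules. All 6 WT members led by Ighg3 were among the 15 with high Xbp1 and Mzb1. In WT members with germinal centre RNA Ighm led in 18 of 19. Without granule RNA or high Xbp1 and Mzb1, switched isotypes led in 0.901% of WT and 6.67% of Postn-DTR members.

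Antibody V segments recurred among members, and different ones in the libraries. A cell was given the heavy and the light V segment with the most UMIs when it held at least 3 and at least 50% of the UMIs of its locus. In WT 123 members had both, in 78 different pairs, and in Postn-DTR 53 members had both, in 19. The most frequent pair was Ighv1-80 with Igkv4-55 in WT and Ighv1-11 with Igkv8-16 in Postn-DTR. Cells with the same pair are not called clones, because the junctions were not in the files used. The heavy segments of these pairs and the close relative Ighv1-82 are printed below to show how far a short read could tell them apart. They are the 3′ ends, equal in length, of the GENCODE M21 transcript models on mm10, on the minus strand of chromosome 12, at chr12:115912344-115912776 for Ighv1-80, chr12:115952538-115953005 for Ighv1-82 and chr12:114612243-114612675 for Ighv1-11. Capitals mark bases that differ from Ighv1-80.
Ighv1-80: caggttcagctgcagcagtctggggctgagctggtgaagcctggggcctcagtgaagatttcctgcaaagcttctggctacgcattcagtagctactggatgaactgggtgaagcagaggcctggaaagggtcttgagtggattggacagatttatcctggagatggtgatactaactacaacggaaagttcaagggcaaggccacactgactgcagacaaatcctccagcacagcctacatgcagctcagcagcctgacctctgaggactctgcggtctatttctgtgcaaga
Ighv1-82: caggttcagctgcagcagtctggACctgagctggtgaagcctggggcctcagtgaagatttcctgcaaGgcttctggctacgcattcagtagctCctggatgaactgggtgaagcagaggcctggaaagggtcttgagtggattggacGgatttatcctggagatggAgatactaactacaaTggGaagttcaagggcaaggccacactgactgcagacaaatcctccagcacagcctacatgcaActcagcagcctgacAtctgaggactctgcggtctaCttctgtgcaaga
Ighv1-11: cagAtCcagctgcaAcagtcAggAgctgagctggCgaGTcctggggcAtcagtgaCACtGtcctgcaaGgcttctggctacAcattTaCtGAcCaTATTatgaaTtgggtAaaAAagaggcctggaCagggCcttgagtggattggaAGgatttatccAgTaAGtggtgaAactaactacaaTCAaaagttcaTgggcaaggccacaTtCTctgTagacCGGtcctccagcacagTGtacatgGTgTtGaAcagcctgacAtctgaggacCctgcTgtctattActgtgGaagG
Ighv1-82 differed from Ighv1-80 at 11 bases (96.3% the same), so reads could have been split between them. Ighv1-11 differed at 61 (79.3%), and its nearest relative in the annotation, Ighv1-50, was 84.9% the same. Among light segments, Igkv4-55 at chr6:69607275-69607828 was 96.6% the same as Igkv4-68, and Igkv8-16 at chr6:70386672-70387252 was 84.5% the same as Igkv8-34. The pair of Postn-DTR was therefore distinct in sequence, and both segments of the WT pair had close relatives.

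Ighv1-11 with Igkv8-16 was found in 32 of 58 Postn-DTR members, 55.2% (41.5 to 68.3), and in 11 of 134 WT members, 8.21% (4.17 to 14.2). The same segments were also free in the Postn-DTR library, where 41 of 478 T-gated cells (8.58%) met the same rule, as did 2.26% of T-gated cells in WT. With at least 10 UMIs and 80% of the locus no T-gated cell had the pair (0 of 3010 in WT allows up to 0.0997% and 0 of 478 in Postn-DTR up to 0.628%). By that rule it was found in 27 of 58 Postn-DTR members, 46.6% (33.3 to 60.1), in 3 of 134 WT members, 2.24% (0.464 to 6.4), and in 3.72% and 0.39% of non-cycling B cells. The intervals of the members did not overlap between the libraries under either rule. They take cells as independent, which cells that share a pair may not be. The pair was also picked as the most frequent in Postn-DTR members, so the gap between the libraries is a description. All 11 WT members with the pair by the first rule, and 31 of 32 in Postn-DTR, held more UMIs of both segments than any T-gated cell of their library. Cells above the Jchain limit were asked here for Cd79a and no Cd3e, but not for Ms4a1. The cycle-positive ones thus include cells beyond the 152 Postn-DTR and 43 WT cells counted above with both genes. They had the pair in 157 of 304 (51.6%) and 6 of 53 (11.3%), in Postn-DTR and WT, and the other cells above the limit in 39.6% and 23.4%. In Postn-DTR 26 of the 32 members with the pair had high Xbp1 and Mzb1, and in WT 9 of 11. Ighm led in 24 and Ighg3 in 8 of the Postn-DTR ones, and Ighm in 6 and Ighg3 in 5 of the WT ones. The 11 WT members held 110 to 7856 UMIs of the heavy and 197 to 5464 of the light segment. Their fall to 3 under the stricter rule thus came from the condition of 80% of the locus and not from that of 10 UMIs. By the 10-UMI rule 27 of 63 Postn-DTR gated B cells with the pair were cycling (42.9%), a share that follows in part from how the pair was picked.

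Ighv1-80 with Igkv4-55 was found in 16 of 134 WT members, 11.9% (6.98 to 18.7), in 13 of 2562 WT non-cycling B cells and in no T-gated cell of either library. In Postn-DTR it was found in 0 of 58 members (up to 5.17%) and 0 of 968 non-cycling B cells. By the 10-UMI rule the WT share was 8.21%, from 11 members. Of WT gated B cells with the pair 16 of 29 were cycling, 55.2% (35.7 to 73.6), against 4.86% of those with other pairs. The pair was picked as the most frequent among WT members, so this contrast follows in part from the choice and is a description. Of the 16 members 7 held at least 10 germinal centre UMIs, and the median was 7 (range 2 to 26). All 16 were led by Ighm, with 4 to 70 UMIs of the heavy segment and 11 to 154 of the light one. The V RNA of these members was thus far below that of the WT members with Ighv1-11. In WT the pair was in 0 of 53 cycle-positive cells above the Jchain limit (up to 5.66%) and in 6 of 479 other cells above it (1.25%). Ighv1-82 with Igkv17-127 was in 5 WT members and no Postn-DTR member. Ighv11-2 with Igkv14-126, a pair known from B1 B cells that bind phosphatidylcholine, was in 7 WT members, 5.22% (2.13 to 10.5), and in 3 Postn-DTR members, 5.17% (1.08 to 14.4), all 3 with granule RNA. It was in 6.75% of WT and 11.5% of Postn-DTR non-cycling B cells and in 0.93% and 2.09% of T-gated cells. By the 10-UMI rule this pair was in 7 of 134 WT and 0 of 58 Postn-DTR members (up to 5.17%), and in 5.31% and 6.61% of non-cycling B cells.

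**Figure D5:**
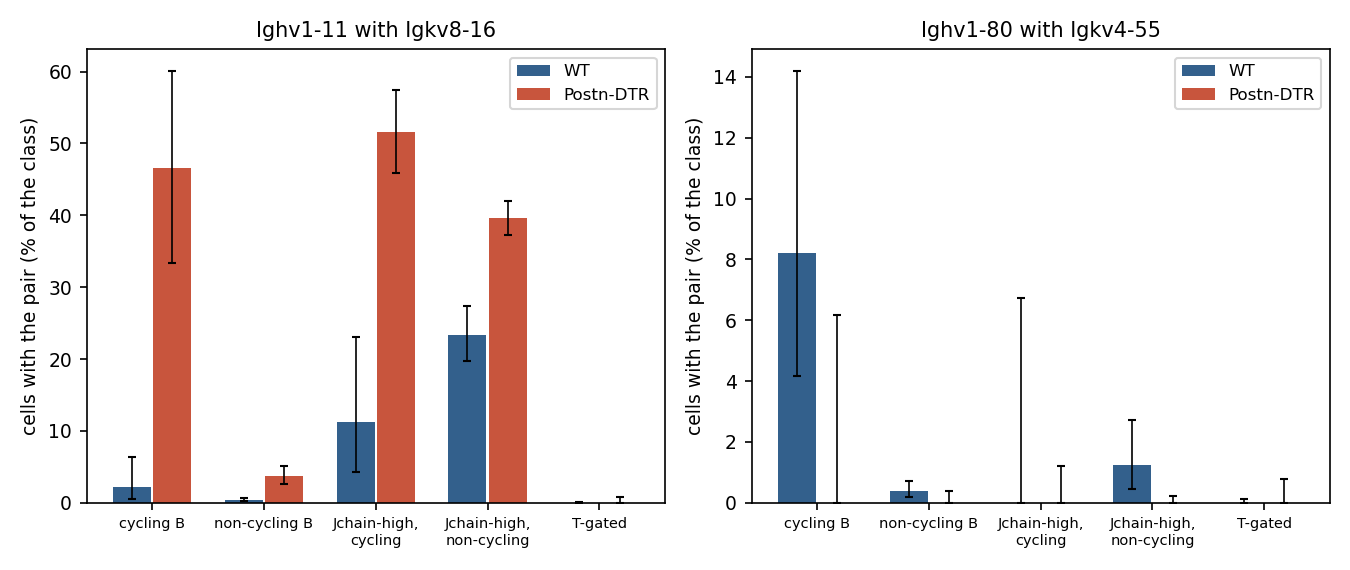
Share of cells (y axis, percent of the class) with Ighv1-11 and Igkv8-16 (left) or Ighv1-80 and Igkv4-55 (right), by the rule of 10 UMIs and 80% of the locus, in 5 classes of WT (blue) and Postn-DTR (red): cycling and non-cycling B cells, cycling and non-cycling cells above the Jchain limit (Jchain-high) and T-gated cells. The Jchain-high classes were asked for Cd79a but not for Ms4a1. Whiskers are exact 95% intervals. The left pair is in 46.6% of Postn-DTR and 2.24% of WT cycling B cells (55.2% and 8.21% at 3 UMIs and 50% of the locus), and the right pair in 8.21% of WT and in no Postn-DTR cycling B cell.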

How the data were processed

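Omental leukocytes of 1 WT and 1 Postn-DTR pool were profiled by droplet single-cell RNA-seq. The submitters' processing notes name Cell Ranger 6.0.0 and mm10, whereas the methods name another Cell Ranger release, and the labels and the methods differ on whether a 5′ or a 3′ kit was used. The deposited values are natural log values made by the authors as ln(1 + UMIs per 10000) for 19960 genes. They were returned to the linear scale, and UMIs were recovered from each cell's smallest step (99.96% and 99.91% of values lay within 0.1 of a whole UMI). Levels are means over cells, compared as log2 ratios with 0.05 added, at a filter of 0.25 UMIs per 10000 and 50 UMIs, and a gene was counted at 2-fold or more. With 1 library per group no test was possible.

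Named genes were the genes of the selection rule, the 10 highest and 10 lowest ratios of cycling over non-cycling cells in WT on the same side in Postn-DTR, the 8 highest and 8 lowest between libraries with 30 or more UMIs, and in each list up to 4 of the highest level and the 2 furthest from an equal level. Other genes were named after their values were seen. The members and lists were chosen with earlier results of these data known. Neutrophils had been planned as cells outside the cycle, but their gate held cycling precursors, so mature neutrophils were added. Doublets were called by Scrublet at an expected rate of 0.08. Python 3.11.15, numpy 2.4.6, scipy 1.17.1, pandas 2.3.3 and scanpy 1.11.5 were used. The level calculation was tested on simulated data. Some genes are not reported here.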

Additional observations from a re-analysis of the deposited data

How the results depend on the processing

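With 1 pooled library a group, intervals cover counting error only and say nothing of the spread between mice, and the Postn-DTR values rest on 58 cells. No paired analysis was possible because each group was 1 library. Of 106 summary values under the alternatives 69 moved by less than their interval or by less than 1.5 times. Cycling cells were 11.7% of WT and 12.4% of Postn-DTR gated B cells with 1 or more of the 4 genes, 3.57% and 3.88% thinned to 2000 UMIs, and 3.9% and 2.99% with the Jchain limit divided by 10. They were 4.12% in WT without cells holding UMIs of Trac, Lyz2, S100a8, C1qa or Col3a1. In Postn-DTR they were 11% with no Jchain limit and 1.68% without members with granule RNA or high Xbp1 and Mzb1, both chosen after seeing the data.

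Counts of genes past 2-fold moved with the filter. With 0.2 added, 75 genes were lower in WT cycling than non-cycling cells, 328 in Postn-DTR, and 120 in Postn-DTR than WT cycling cells. At a filter of 1 UMI per 10000, 139 were higher and 50 lower in WT, 232 and 152 in Postn-DTR, and 99 and 60 between the libraries. With no level filter, 889 were higher and 216 lower in WT, 908 lower in Postn-DTR and 457 lower between the libraries. Thinned, 245 were lower in WT, and 79 were higher and 89 lower between the libraries. Summing UMIs moved the median of all tested genes from -0.01 to 0.12 for cycling over non-cycling cells of Postn-DTR. B1 RNA was the larger in 11.2% of WT and 37.9% of Postn-DTR members without Cd9, Anxa2 and Ahnak, and in 37.3% and 25.9% after thinning, where WT had the higher share. Ighv1-11 with Igkv8-16 was in 4.05% and 87.1% of the members with both segments at 10 UMIs and 80% of the locus.

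Without cells holding UMIs of other lineages, cycling over non-cycling log2 ratios changed sign in WT for Camp (-0.84), Elane (-0.67), Enpp2 (-0.47), Igfbp5 (-0.48), Igfbp6 (-0.94), Mpo (-0.30), Prtn3 (-0.28) and Sparc (-1.26). In Postn-DTR they did so for Camp (-1.18), Cd177 (-0.059), Elane (-0.89), Igfbp6 (-0.72), Mpo (-0.007) and Prtn3 (-0.45), and between the libraries for Camp (-0.19), Cd177 (-0.15) and Sparc (0.18). Without members with granule RNA or high Xbp1 and Mzb1, chosen after seeing the data, 65 genes were higher in Postn-DTR than in WT cycling cells. That ratio changed sign for Camp (-0.28), Cd177 (-0.13), Fkbp11 (-0.90), H2-Aa (0.13), Ighg1 (-0.60), Ighg2c (-2.20), Ighm (-0.056), Ltf (-0.15), Mpo (-0.30), Mzb1 (-0.066), Satb1 (0.012), Sdc1 (-0.27) and Xbp1 (-0.95). Under the same choice switched isotypes led in 0.901% of WT and 6.67% of Postn-DTR members, B1 RNA was the larger in 13.3% of Postn-DTR members, and the Ighv1-11 pair was in 1.94% and 35.7% of members with both segments. Beyond what these exclusions take out by construction, the causes were not tested.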
